A study of Mus musculus with 6 samples.

Results

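The 10 elastic fiber genes Eln, Fbn1, Fbn2, Fbln1, Fbln2, Fbln5, Mfap2, Mfap4, Mfap5 and Lox were followed in mouse dorsal skin treated with rebamipide, a quinolinone drug known as a mucosal protectant. The members were taken by gene symbol, and all 10 were found among the 21959 genes of the deposited table. Elastic fibers give skin its recoil. Fibroblasts and smooth muscle cells secrete tropoelastin, fibulins carry it to a scaffold of fibrillin microfibrils, and lysyl oxidases crosslink it into an insoluble core. Microfibrils also bind latent TGF-β through the latent TGF-β binding proteins.

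Bulk poly-A RNA-seq was performed on dorsal skin of male C57BL/6 mice aged 7 weeks, shaved while the hair follicles were in telogen, the resting phase of the hair cycle. The control group received the vehicle, 30% dipropylene glycol in water, and the treated group received 3% rebamipide. Both were applied topically every day for 7 days. Each group held 3 libraries, labelled replicates 1 to 3, and the labels carry no genetic modification in either group.

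Total counts ranged from 38676018 to 39915276 in vehicle and from 32709801 to 34706852 in rebamipide. The libraries stood apart in ways that touch the elastic fiber genes. Rebamipide library 3 went against its label as skin for the keratinocyte markers: Krt14 and Krt15, which define the basal epidermis, had 0 counts there, and Krt5 had 4 counts against 50427 to 77535 in vehicle. Not every listed marker was absent: Itga6, an integrin subunit also made outside the epidermis, had 3388 counts there, Trp63 31 and Krt10 51. A share of 0 counts allows up to 3 counts, or 0.114 CPM (normalized counts per 1000000 counts), in that library. The 6 basal keratinocyte markers had a mean log2 CPM of 8.32, 8.85 and 8.63 in vehicle and of 7.14, 6.39 and -1.5 in rebamipide. The 6 fast skeletal muscle markers had mean log2 CPM of 9.34, 11.49 and 11.66 in vehicle and of 12.01, 9.83 and 4.90 in rebamipide. The 6 adipocyte markers were at 6.62 to 8.11 in vehicle and at 9.35 to 10.33 in rebamipide, and Ucp1, which defines brown fat, had 0 counts in every vehicle library and at least 81048 in every rebamipide library. Of the other brown adipocyte markers, Cidea, Cox8b and Dio2 were also higher in every rebamipide library. Elovl3 was lower in every rebamipide library, with means of 181 CPM in vehicle and 66.3 CPM in rebamipide. Zic1 overlapped between groups, with means of 12.1 and 12.8 CPM. The part of these differences in the results below was not tested, and the fits are given with and without the libraries concerned. In bulk skin, fewer cells of a type and less RNA per cell cannot be told apart.

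The comparison asked how transcripts of the elastic fiber machinery stood after 7 days of rebamipide. All 10 genes passed the filter on low counts and all 10 were fitted below the vehicle level, yet 0 of 10 passed an adjusted p of 0.05 in edgeR's quasi-likelihood test with Benjamini-Hochberg adjustment over 14875 genes. The same test called 6.51% of all genes lower and 14.1% higher. On the lower side 1 member, Lox, had an unadjusted p below 0.05, as did 18.8% of all genes, and on the higher side 0 members did beside 20.9% of all genes. DESeq2 called 1 member lower, beside 17% of all genes, and limma-voom 0, beside 6.94%. The median log2 fold change of the members was -1.16, beside a median of -0.17 over all genes tested. It was -1.87 without rebamipide library 1 and -0.67 without rebamipide library 3. Rebamipide library 1 lay among the vehicle libraries for most members, whereas library 2 lay below every vehicle library for 10 of 10 members and library 3 for 9 of 10. The share of all genes in such a place was not counted for single libraries, so these counts are not read as particular to the members.

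**Figure D1:**
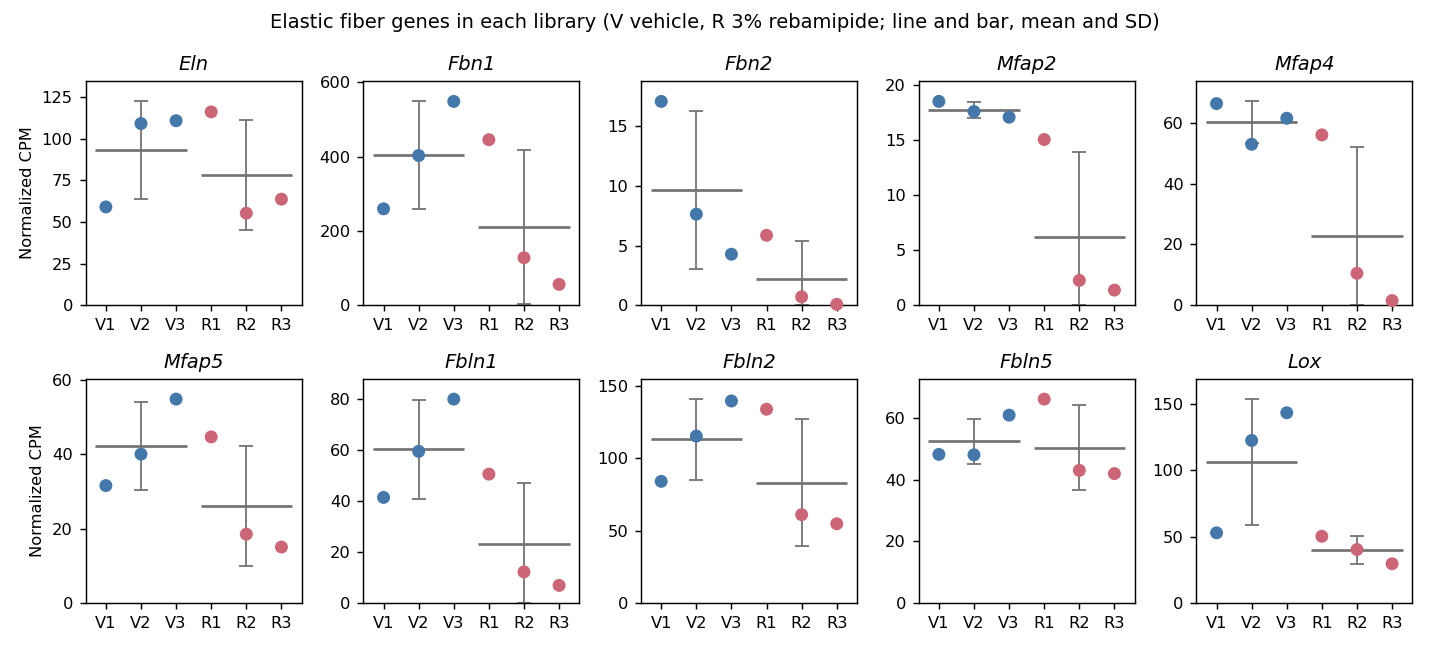
Normalized CPM of each member (vertical axes from 0) in the 3 vehicle (V, blue) and 3 rebamipide (R, red) libraries. Horizontal lines are group means and bars are SD, clipped at 0. R2 lies below every vehicle library in all 10 panels, while R1 does so only for Mfap2 and Lox. The share of all genes in such a place was not counted for single libraries.

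Elastin, the product of Eln (ENSMUSG00000029675, GRCm39 chromosome 5, 134731447 to 134776177, minus strand), forms the elastic core. Its normalized CPM was 59.0, 109.1 and 110.8 in the vehicle libraries and 116.1, 55.3 and 63.7 in the rebamipide libraries. The groups overlapped: the highest value was rebamipide library 1, and vehicle library 1 was close to rebamipide libraries 2 and 3. The mean was 93.0 ± 29.4 in vehicle and 78.4 ± 33.0 in rebamipide (SD, n = 3). In edgeR the log2 fold change was -0.25 with an SE of 0.38 and a 95% interval from -1.17 to 0.68 (edgeR adjusted p = 0.652), so a moderate change in either direction was within the error.

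The fibrillins are the large glycoproteins that polymerize into microfibrils. Fbn1 (GRCm39 chromosome 2, 125142514 to 125349913, minus strand), the main fibrillin of adult tissue, had 259.4, 402.9 and 548.6 CPM in vehicle and 445.5, 127.7 and 56.0 CPM in rebamipide. Rebamipide library 1 lay inside the vehicle range, library 2 was at 31.6% of the vehicle mean and library 3 at 13.9%. The log2 fold change was -0.94 (SE 0.76, 95% interval -2.78 to 0.89, edgeR adjusted p = 0.378).

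Fbn2 (GRCm39 chromosome 18, 58141695 to 58343559, minus strand), a fibrillin best known from development, was the least abundant member. It had 853, 376 and 200 counts in vehicle and 178, 18 and 2 counts in rebamipide. The 2 counts in rebamipide library 3 fall under the limit that a count of 0 allows, so no fold is given for that library. In CPM the values were 17.1, 7.64 and 4.28 in vehicle against 5.86, 0.702 and 0.0763 in rebamipide. Vehicle itself spread widely, with library 1 above libraries 2 and 3, and the fit of -2.12 had the widest error of the 10 members (SE 1.33, 95% interval -5.33 to 1.09, edgeR adjusted p = 0.27). Markers of the growing hair follicle stood in the same order within each group: the mean log2 CPM of Krt35, Krt31, Krt71, Msx2, Dlx3 and Hoxc13 was 9.16, 7.61 and 2.92 in vehicle and 4.75, -3.33 and -6.25 in rebamipide, and all 6 had 0 counts in rebamipide library 3. This list was chosen after the data were seen, and its part in the Fbn2 values was not tested. Per kilobase of gene model, Fbn2 was at 6.05%, 1.74% and 0.715% of the Fbn1 level in vehicle and at 1.21% and 0.504% in rebamipide libraries 1 and 2.

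The microfibril-associated proteins decorate the fibrillin scaffold. Mfap2 (GRCm39 chromosome 4, 140737729 to 140743295, plus strand), which encodes the small glycoprotein MAGP-1, was the most even of the 10 members among the vehicle libraries, at 18.6, 17.6 and 17.1 CPM. The rebamipide values were 15.1, 2.26 and 1.37 CPM. Every rebamipide library lay below every vehicle library, an arrangement seen for 2 of 10 members (Mfap2 and Lox) and for 24% of all genes tested. The gap for library 1 was small, and libraries 2 and 3 held 58 and 36 counts. The log2 fold change of -1.51 had an SE of 0.89 (95% interval -3.66 to 0.65, edgeR adjusted p = 0.246).

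Mfap4 (GRCm39 chromosome 11, 61376257 to 61379726, plus strand) encodes a fibrinogen-related protein that binds tropoelastin and fibrillin. Its levels were 66.3, 52.9 and 61.5 CPM in vehicle and 56.0, 10.5 and 1.53 CPM in rebamipide. Library 1 sat inside the vehicle range, and library 3 was at 2.54% of the vehicle mean, the deepest value among members with more than 3 counts in that library. The fitted log2 fold change was -1.41 (SE 1.09, 95% interval -4.05 to 1.23, edgeR adjusted p = 0.362). The gene span overlaps that of Mapk7 on the opposite strand, whose count reached 724, and whether counting used strand is not given in the sources used here.

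Mfap5 (GRCm39 chromosome 6, 122482804 to 122506249, plus strand), which encodes MAGP-2, had 31.6, 40.1 and 54.9 CPM in vehicle and 44.7, 18.5 and 15.0 CPM in rebamipide. Libraries 2 and 3 were at 43.9% and 35.7% of the vehicle mean, and library 1 lay inside the vehicle range. The log2 fold change was -0.69 (SE 0.47, 95% interval -1.82 to 0.44, edgeR adjusted p = 0.301).

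Among the 3 fibulins, Fbln1 (GRCm39 chromosome 15, 85090150 to 85170736, plus strand), a glycoprotein found within elastic fibers and basement membranes, had 41.3, 59.4 and 79.9 CPM in vehicle and 50.5, 12.2 and 6.87 CPM in rebamipide. Library 1 lay inside the vehicle range, and libraries 2 and 3 were at 20.2% and 11.4% of the vehicle mean. This gave a log2 fold change of -1.38 (SE 0.75, 95% interval -3.20 to 0.45, edgeR adjusted p = 0.218). Fbln2 (GRCm39 chromosome 6, 91189437 to 91249522, plus strand), which binds tropoelastin and fibrillin-1, had 84.2, 115.5 and 139.8 CPM in vehicle and 134.1, 61.1 and 54.8 CPM in rebamipide. Its libraries 2 and 3 stayed at 54.0% and 48.4% of the vehicle mean, with a log2 fold change of -0.44 (SE 0.40, 95% interval -1.42 to 0.54, edgeR adjusted p = 0.439).

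Fbln5 (GRCm39 chromosome 12, 101712824 to 101785314, minus strand), the fibulin that brings tropoelastin onto microfibrils, had the smallest difference of the 10 genes. It had 48.2, 48.1 and 61.0 CPM in vehicle and 66.2, 43.0 and 42.0 CPM in rebamipide. The highest library was rebamipide library 1, and libraries 2 and 3 were at 82.1% and 80.1% of the vehicle mean. Its log2 fold change was -0.06 (SE 0.24), and the 95% interval from -0.65 to 0.53 was the narrowest of the members (edgeR adjusted p = 0.876). Without vehicle library 3 or rebamipide library 2 or 3 the fitted value turned to 0.05 to 0.08.

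Lox (GRCm39 chromosome 18, 52649139 to 52662939, minus strand) encodes the lysyl oxidase that starts the crosslinking of elastin and collagen. It had 52.8, 122.4 and 143.3 CPM in vehicle and 50.2, 40.2 and 29.5 CPM in rebamipide. All rebamipide libraries were low, library 1 included, at 47.3%, 37.9% and 27.8% of the vehicle mean, though vehicle library 1 was only slightly above rebamipide library 1. The log2 fold change was -1.41 (SE 0.41, 95% interval -2.41 to -0.41) with an unadjusted p of 0.0135 and an edgeR adjusted p of 0.0579. Lox was the only member past an unadjusted p of 0.05 together with a log2 fold change below -1, a rule that 14.5% of all genes met on the lower side and, for a log2 fold change above 1, 14.3% on the higher side, where 0 members met it. DESeq2 on the same libraries gave Lox an adjusted p of 0.0115, so its call rests on the settings. In edgeR the adjusted p was 0.0339 without vehicle library 1, 0.0262 with total counts as the scale and 0.037 with at least 10 counts in every library. On the other side it was 0.174 without vehicle library 2, 0.134 without vehicle library 3 and 0.177 without rebamipide library 2. Without rebamipide library 3 it was 0.143, and with the replicate block 0.157. With fibroblast markers as the scale it was 0.862, at a log2 fold change of -0.18. In DESeq2 it was 0.0801 without vehicle library 2 and 0.0641 without rebamipide library 3, with log2 fold changes of -1.32 and -1.20.

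**Figure D2:**
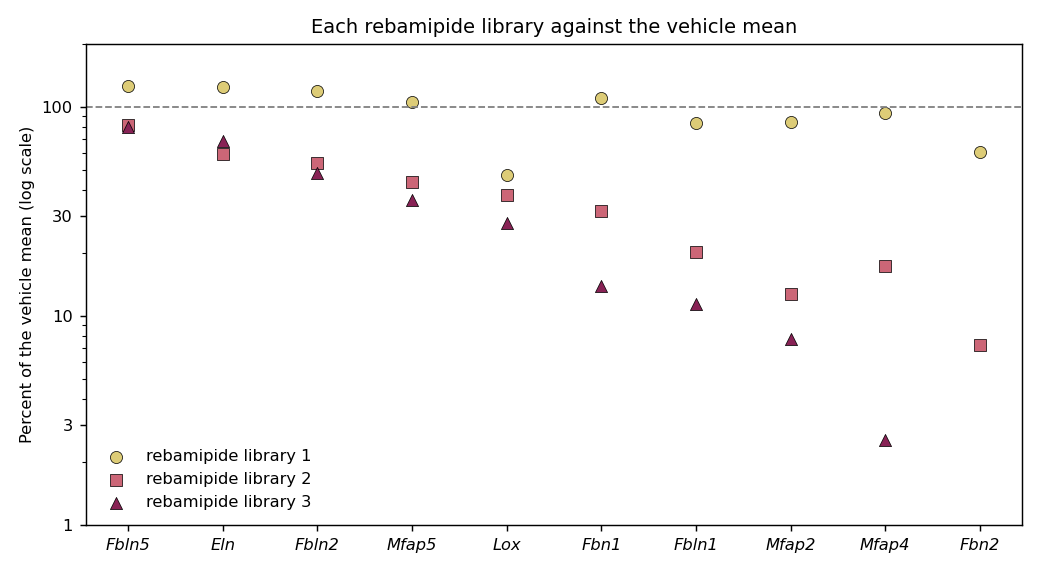
Level of each member in each rebamipide library as a percent of the vehicle mean (log scale; the dashed line is 100%), ordered by library 3. Library 1 (circles) stays near 100% except for Fbn2 and Lox, while libraries 2 and 3 spread from about the vehicle level for Fbln5 to far below it for Fbn2 and Mfap4; Fbn2 in library 3, with 2 counts, is not plotted.

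Rebamipide libraries 2 and 3 thus held a graded set of levels. In library 3 Fbln5 was at 80.1%, Eln at 68.5% and Fbln2 at 48.4% of the vehicle mean, while Fbn1, Fbln1, Mfap2 and Mfap4 were between 2.54% and 13.9%. Library 2 showed the same 3 genes at the top, with 82.1%, 59.4% and 54.0%. Library 1 ranged from 47.3% for Lox to 126% for Fbln5, with a median of 99.5% over the 10 members.

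The fits without single rebamipide libraries show what library 1 contributed. Without it, 7 of 10 members passed the edgeR adjusted p of 0.05 on the lower side, where 12.8% of all genes tested did. These were Fbn1, Fbn2, Mfap2, Mfap4, Mfap5, Fbln1 and Fbln2. Mfap2 then had a log2 fold change of -3.28 (SE 0.32, edgeR adjusted p = 0.00591) and Fbln1 of -2.66 (SE 0.44, edgeR adjusted p = 0.0163). Eln stayed at -0.64 (SE 0.33, edgeR adjusted p = 0.183), Fbln5 at -0.30 (SE 0.17, edgeR adjusted p = 0.228) and Lox at -1.60 (SE 0.49, edgeR adjusted p = 0.0643). Without library 3, the library with 0 counts of Krt14 and Krt15, 0 of 10 members passed on the lower side, where 2.49% of all genes did in edgeR and 12.2% in DESeq2. On the lower side 1 member was past an unadjusted p of 0.05 in each, beside 2245 of 15327 genes in edgeR, so these counts are near the background. Mfap2 was then at -1.02 (SE 0.74, edgeR adjusted p = 0.384) and Lox at -1.22 (SE 0.47, edgeR adjusted p = 0.143). Without library 2, edgeR called 0 of 15335 genes lower, so no member could be called in that fit. The fits describe how the members depend on single libraries, since the labels give no ground for leaving any of them out.

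**Figure D3:**
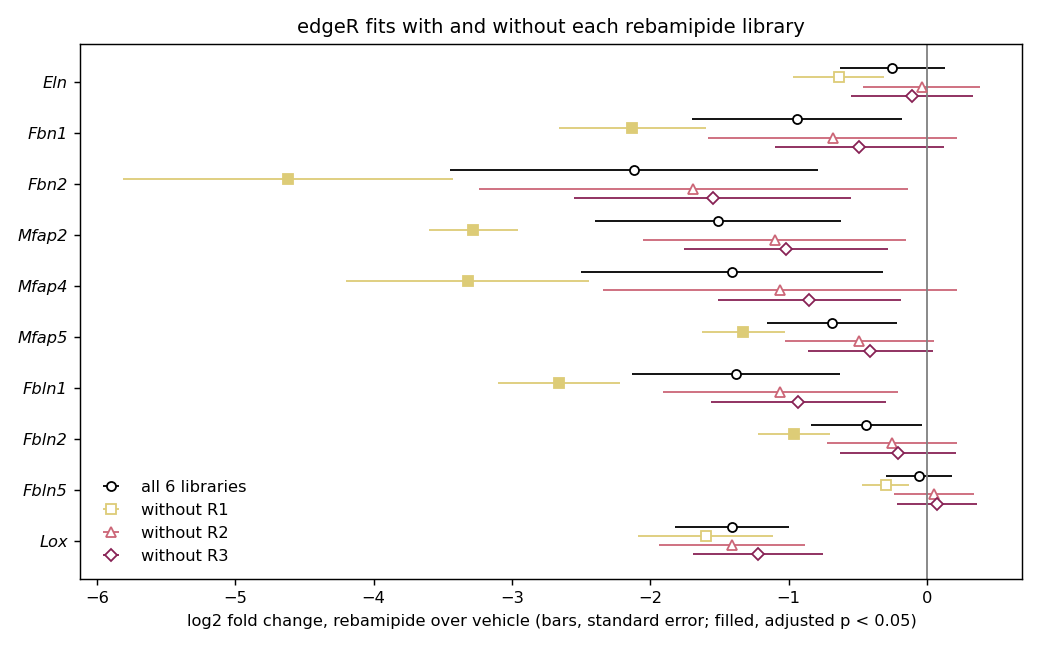
Log2 fold change of rebamipide over vehicle (horizontal axis) for each member in edgeR with all 6 libraries and without rebamipide library 1, 2 or 3. Bars are standard errors and filled symbols mark an adjusted p below 0.05. Filled symbols appear only without R1, for 7 members, where 12.8% of all genes were lower. Without R2, 0 of 15335 genes were lower, so no member could be filled there.

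Levels of different genes were compared per kilobase of gene model. In vehicle the order of mean CPM per kb was Fbn1 (33.3 ± 11.9), Mfap4 (31.3 ± 3.53), Lox (22.2 ± 9.91), Fbln2 (17.8 ± 4.38), Mfap2 (14.7 ± 0.604), Fbln1 (13.8 ± 4.41), Mfap5 (11.8 ± 3.28), Eln (11.5 ± 3.63), Fbln5 (7.59 ± 1.07) and Fbn2 (0.731 ± 0.503; SD, n = 3 throughout). Each neighbor in that order lay within the summed SDs of the next, except Fbn2, which stood apart below Fbln5. The summed level of the 10 genes was 129.3, 164.8 and 199.7 CPM per kb in vehicle and 158.2, 56.9 and 41.0 CPM per kb in rebamipide. In rebamipide library 3 the highest members were Fbln2 at 8.60 and Eln at 7.87 CPM per kb, and Mfap4, near the top of the vehicle order, was at 0.794.

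The share of each gene in that sum describes the makeup of the set. Shares add up to 100%, so a gene can take a larger share at an unchanged or lower level where others are lower. Eln took 5.64%, 8.17% and 6.85% of the summed CPM per kb in vehicle and 9.06%, 12.0% and 19.2% in rebamipide, with the rebamipide shares all above the vehicle shares although its CPM overlapped between groups. Fbln2 took 10.2% to 11% in vehicle and 13.3% to 21.0% in rebamipide. Fbln5 took 4.22% to 5.40% in vehicle and 6.05% to 14.8% in rebamipide. Mfap5 shares were 6.77% to 7.66% against 7.87% to 10.2%. On the other side Fbln1 took 7.32% to 9.16% in vehicle and 3.83% to 7.30% in rebamipide, again with no overlap but a narrow gap. Each of these shares had p = 0.1 in a two-sided exact permutation test, the smallest p that 3 against 3 libraries allow. Mfap4 went from 16.0% to 26.7% in vehicle to 18.4%, 9.58% and 1.94% in rebamipide, with overlapping groups (exact permutation p = 0.3). Lox kept similar shares, 8.55% to 15.5% in vehicle and 6.64% to 15.0% in rebamipide (exact permutation p = 0.6).

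**Figure D4:**
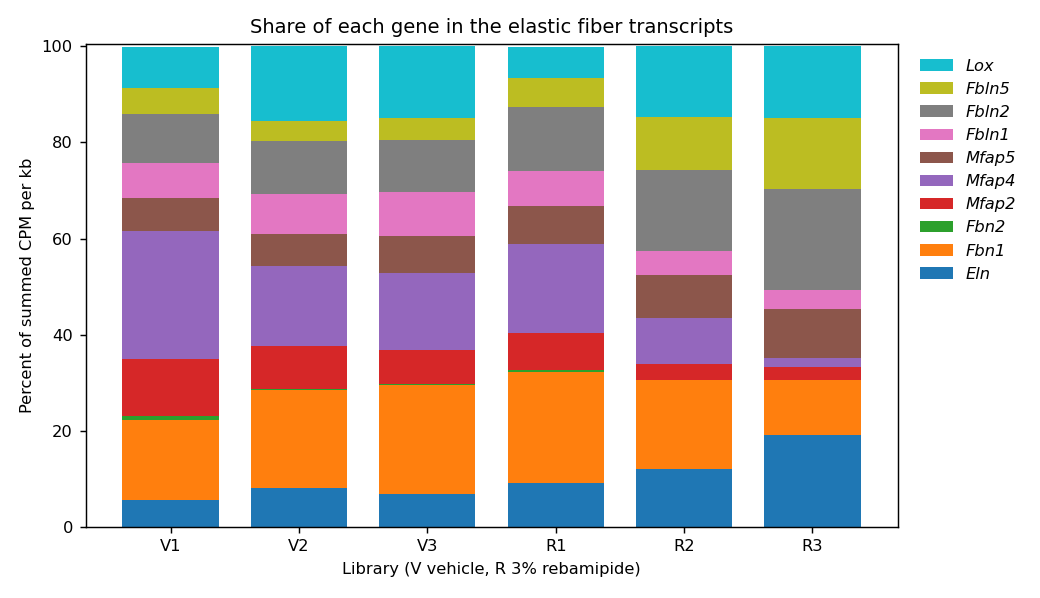
Share of each member in the summed CPM per kb of the 10 genes (vertical axis, percent) in each library. The Eln, Fbln2 and Fbln5 segments are wider in every rebamipide library than in any vehicle library, and the Mfap4 segment is narrow in R2 and R3.

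Most fibroblast markers were, like the elastic fiber genes, low in rebamipide libraries 2 and 3. The mean log2 CPM of 10 fibroblast markers (Pdgfra, Pdgfrb, Thy1, Dpt, Dpp4, Pi16, Fap, Twist2, Clec3b and Ly6c1) was 5.58, 6.26 and 6.58 in vehicle and 5.97, 4.90 and 4.24 in rebamipide. In edgeR at adjusted p below 0.05, 2 of 10 were lower and 0 of 10 higher, beside 6.51% and 14.1% of all genes (1 of 10 higher in DESeq2 and at an unadjusted p below 0.05). Those called lower were Dpp4 and Fap. Pdgfrb and Ly6c1, which pericytes and endothelial cells also express, lay higher in every rebamipide library, with log2 fold changes of 0.99 (edgeR adjusted p = 0.0793) and 0.79 (edgeR adjusted p = 0.191). None of the 10 was at 0 in any library. The 6 fibrillar collagens were at 9.63, 9.76 and 10.06 in vehicle and at 10.12, 8.24 and 7.46 in rebamipide, and 0 of 6 had an edgeR p below 0.05, adjusted or not, in either direction, or a call in DESeq2 or limma-voom. Col1a1, the main collagen of the dermis, had 3467, 3218 and 3908 CPM in vehicle and 3849, 526.7 and 237.1 CPM in rebamipide. The mean of the 10 elastic fiber genes followed the same course, with 5.63, 5.88 and 6.04 in vehicle and 5.78, 4.14 and 3.22 in rebamipide. The 6 smooth muscle markers, from the other cell type known to make elastin, were at 4.89, 5.21 and 5.43 in vehicle and at 5.60, 5.09 and 5.14 in rebamipide. That mean joins genes of unlike patterns. Des, which skeletal muscle also expresses, had 161.6, 827.2 and 781.5 CPM in vehicle and 1115, 357.7 and 101.1 CPM in rebamipide. Cnn1 lay higher in every rebamipide library (log2 fold change 0.89, edgeR adjusted p = 0.103), while Smtn was fitted at -0.85 (edgeR adjusted p = 0.134).

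**Figure D5:**
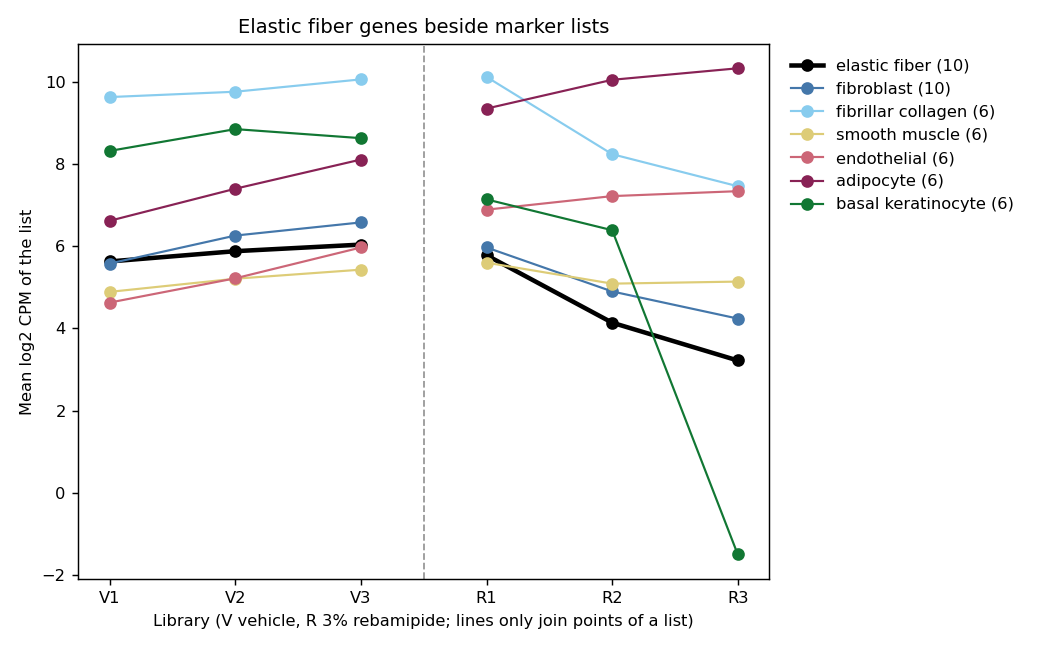
Mean log2 CPM (vertical axis) of the elastic fiber genes, the fibrillar collagens and 5 marker lists in each library; list sizes are in the legend. Elastic fiber genes, fibroblast markers and collagens are low in R2 and R3, the smooth muscle mean stays between 4.89 and 5.60, and adipocyte and endothelial markers are higher in every rebamipide library.

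Against the mean of the fibroblast markers, the median log2 ratio of the 10 genes was taken in each library. Its mean was higher by 0.21 in rebamipide than in vehicle. Differences of single members ranged from -2.41 for Fbn2 to 1.03 for Fbln5. Over all 14875 genes tested the median of such single-gene differences was 0.93, a statistic unlike the 0.21. Leaving out single libraries moved the 0.21 to between 0.09 without rebamipide library 3 and 0.38 without vehicle library 1. On this ratio Eln was at 0.30, 0.51 and 0.22 in vehicle and at 0.89, 0.89 and 1.76 in rebamipide, a difference of 0.84. Fbln5 was at 0.01, -0.67 and -0.65 in vehicle and at 0.08, 0.53 and 1.16 in rebamipide, a difference of 1.03, and Fbln2 differed by 0.57. These 3 of 10 genes were higher with no overlap between groups, as were 27.3% of all genes, and each had p = 0.1 in the two-sided exact permutation test, the smallest possible. Their differences were near or below the shift of all genes, so nothing particular to them is read from the ratio. Fbn2 differed by -2.41, Mfap4 by -1.53, Mfap2 by -1.19 and Fbln1 by -0.74, with overlapping groups and exact permutation p from 0.2 to 0.3. Fbn1 (-0.28), Lox (-0.21) and Mfap5 (0.28) lay nearer to 0. With the mean of Col1a1, Col1a2 and Col3a1 as the reference, all genes shifted further, to a median of 1.64. Fbln1 was then at -0.02, Mfap2 at -0.47, Mfap4 at -0.81 and Fbn2 at -1.69, while Fbn1 and Lox turned to 0.43 and 0.50. On that ratio Mfap2 and Mfap4, 2 of 10 members, were lower with no overlap, as were 1.63% of all genes. The gaps were narrow: Mfap2 reached down to -8.15 in vehicle and up to -8.18 in rebamipide, and Mfap4 to -6.31 and -6.33, each with an exact permutation p of 0.1. Higher with no overlap was Fbln5 (difference 1.74, exact permutation p = 0.1), as were 24.8% of all genes. Eln (1.55), Fbln2 (1.29) and Mfap5 (0.99) were higher with overlapping groups. The sign of Eln, Fbln2, Fbln5, Mfap5, Fbn1 and Lox thus depends on the scale, and each reference moves the whole transcriptome upward.

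Upstream sequences are shown for a fibulin that was low in rebamipide libraries 2 and 3 (Fbln1), a microfibril gene of the same pattern (Mfap2) and the fibulin that differed least (Fbln5). Windows come from RefSeq on build GRCm38.p6, which is older than the GRCm39 build of the gene positions above, and 5 of 10 members had an entry. Each runs 5′ to 3′ along the gene from 250 to 51 bases before its most upstream RefSeq start. Capitals mark the letters CCAAT or GGGCGG on either strand; no capitals of different motifs overlap.
Mfap2, chr4:141010174-141010373, plus strand: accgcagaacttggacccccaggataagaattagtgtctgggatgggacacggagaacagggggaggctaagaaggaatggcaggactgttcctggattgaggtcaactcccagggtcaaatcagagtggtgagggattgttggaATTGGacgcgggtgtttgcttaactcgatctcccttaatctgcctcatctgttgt
Fbln1, chr15:85205699-85205898, plus strand: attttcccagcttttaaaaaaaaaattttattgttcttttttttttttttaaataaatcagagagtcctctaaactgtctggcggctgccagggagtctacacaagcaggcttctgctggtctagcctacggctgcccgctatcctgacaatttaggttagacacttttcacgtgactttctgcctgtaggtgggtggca
Fbln5, chr12:101819170-101819369, minus strand: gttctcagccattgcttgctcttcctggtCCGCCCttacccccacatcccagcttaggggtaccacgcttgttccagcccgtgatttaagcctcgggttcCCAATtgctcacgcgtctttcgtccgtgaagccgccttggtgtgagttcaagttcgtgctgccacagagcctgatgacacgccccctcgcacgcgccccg
The Mfap2 window holds 1 CCAAT match, the Fbln5 window 1 CCAAT and 1 GGGCGG match, and the Fbln1 window neither. TATAAA was searched too and was in none of the 3. Over 32851 windows of the same length, 28.4% held CCAAT, 24.6% GGGCGG and 9.14% TATAAA. These windows differ in base composition, with 51.5%, 42.0% and 60.5% G or C for Mfap2, Fbln1 and Fbln5.

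Of 52 other genes of the elastic fiber pathway, 49 passed the filter on low counts. In edgeR 4 were lower and 2 higher at adjusted p below 0.05, beside 6.51% and 14.1% of all genes. The lower count is near its background and the higher count under it, and the difference from either was not tested. The median log2 fold change of the 49 was -0.70. The called genes are described as single genes. Ltbp2, a latent TGF-β binding protein that binds fibrillin-1 and fibulin-5 rather than TGF-β itself, rose the most. It had 6.03, 8.14 and 8.43 CPM in vehicle and 54.2, 91.5 and 122.7 CPM in rebamipide, 11.9-fold higher (log2 fold change 3.57, SE 0.36, edgeR adjusted p = 0.00939). All rebamipide libraries of Ltbp2 were far above the vehicle libraries. Of the 7 latent TGF-β binding proteins and TGF-β ligands, Ltbp2 was the only one called in edgeR. Without vehicle library 2 or rebamipide library 2, edgeR called 0 of the pathway genes in either direction (0 and 1 genes of the whole table), while DESeq2 with all libraries called 10 lower and 4 higher, beside 2534 and 2719 of all 14875 genes.

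Hspg2, which encodes the basement membrane proteoglycan perlecan, a partner of microfibrils, rose 1.88-fold. It had 165.5, 211.7 and 239.2 CPM in vehicle and 371.6, 363.1 and 424.7 CPM in rebamipide (log2 fold change 0.91, SE 0.23, edgeR adjusted p = 0.0385). The 6 endothelial markers also lay higher in every rebamipide library, from 4.63 to 5.97 in vehicle and from 6.89 to 7.34 in rebamipide as mean log2 CPM. In edgeR 3 of 6 were called higher at adjusted p below 0.05, beside 14.1% of all genes, and 6 of 6 at an unadjusted p, beside 20.9%. DESeq2 called 6 of 6 and limma-voom 5 of 6 higher, beside 2719 and 2138 of 14875 genes. The part of endothelial cells in the perlecan values was not tested.

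The lower pathway genes were low in all 3 rebamipide libraries. Atp7a, the copper pump that loads lysyl oxidases, had 42.6, 30.0 and 19.7 CPM in vehicle and 7.57, 7.44 and 7.18 CPM in rebamipide (log2 fold change -2.05, SE 0.33, edgeR adjusted p = 0.0131). Itgb8, the integrin subunit whose dimer with αv activates latent TGF-β, had 6.05, 10.6 and 10.4 CPM in vehicle and 1.25, 1.87 and 1.22 CPM in rebamipide (log2 fold change -2.63, SE 0.38, edgeR adjusted p = 0.0113). Library 1 was as low as the others for both, unlike most of the 10 members. Mfap3l, named as a relative of the microfibril-associated gene Mfap3, fell by 3.09 on the log2 scale (SE 0.48, edgeR adjusted p = 0.0125). Thsd4, which encodes the microfibril-binding protein ADAMTSL6, had 6.21, 4.55 and 5.03 CPM in vehicle and 2.83, 1.95 and 1.95 CPM in rebamipide (log2 fold change -1.23, SE 0.33, edgeR adjusted p = 0.0468).

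In edgeR 0 genes were called among the other fibulins and the elastin-degrading enzymes. At an unadjusted p below 0.05, 2 of 4 and 1 of 7 were lower, beside 18.8% of all genes. DESeq2 called 2 and 0 of them lower, beside 17% of all genes, and limma-voom 1 and 0, beside 6.94%. These lists are short, and the difference from those shares was not tested. Hmcn1, a giant fibulin-like matrix protein, had the smallest p of the 4 fibulins, with 24.5, 18.8 and 17.2 CPM in vehicle and 8.46, 3.51 and 1.68 CPM in rebamipide (log2 fold change -2.15, SE 0.60, edgeR adjusted p = 0.0518). Of 7 tested enzymes, Ctsl, the lysosomal protease cathepsin L, had the smallest p, with a log2 fold change of -0.72 (SE 0.28, edgeR adjusted p = 0.111). All 7 were fitted below the vehicle level, while Mmp7, Elane and Ctsg did not pass the filter.

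Among 9820 other genes with a mean of at least 10 CPM, those whose log2 CPM pattern over the 6 libraries was most like Eln were Man2b2, Steap3, Samhd1, Dpep1 and Unc93b1. Their root mean square difference from Eln after centering was 0.102 to 0.133, beside a median of 0.74 over all candidates. Man2b2, a lysosomal mannosidase, had 23.7, 36.5 and 39.9 CPM in vehicle and 40.4, 22.4 and 24.2 CPM in rebamipide. The genes most like the mean of the 10 members were Fstl1, Cbr2, Ctsh, Col14a1 and Emilin2, at 0.105 to 0.154 beside a median of 1.2. Of these, Col14a1 encodes a fibril-associated collagen and had 125.9, 145.4 and 168.8 CPM in vehicle and 149.1, 37.3 and 19.3 CPM in rebamipide, and Emilin2 encodes an elastin microfibril interface protein. No gene of the first set is in the second. These likenesses are descriptions over 6 libraries of 2 groups.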

How the data were processed

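Poly-A RNA of dorsal skin was sequenced on a DNBSEQ-T7 instrument, 3 libraries per group. The submitters' processing notes list fastp 0.22.0, HISAT2 2.1.0, HTSeq 0.9.1 and GRCm39. The authors deposited a table of raw read counts and FPKM values per gene and library; strandedness of counting was not given in the sources used here. No columns of comparisons were used.

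Counts were tested with edgeR 4.0.16 (R 4.3.3; filterByExpr, TMM factors, quasi-likelihood F test, Benjamini-Hochberg over 14875 genes); SE is the log2 fold change over the root of F, and intervals use its degrees of freedom. CPM are TMM-normalized, per kb of the deposited gene length; log2 CPM used a prior count of 0.5. Alternatives were DESeq2 1.42.0, limma 3.58.1 (voom, or deposited FPKM as log2 of FPKM plus 1 or 0.1), other scalings and filters, a replicate block and libraries left out. Scripts were tested on simulated counts. The study's own test, per its methods, was DESeq2, kept here as an alternative.

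The members, pathway genes and markers were chosen with earlier results of these data known. Named genes were all members, every pathway gene past adjusted p of 0.05 (or the smallest p of its list) and the 5 genes most alike in pattern. Comparison and marker lists were counted in edgeR at adjusted p of 0.05, where 6.51% of all genes were lower and 14.1% higher. Brown adipocyte markers were 4 of 6 higher (4 higher and 1 lower in DESeq2, 3 higher in limma-voom). Slow skeletal muscle markers were 3 of 5 higher (4 in DESeq2, 0 in limma-voom) and adipocyte markers 5 of 6 higher (6 in DESeq2, 5 in limma-voom). Small leucine-rich proteoglycans were 1 of 8 lower and 1 of 8 higher (5 and 1 in DESeq2 and at an unadjusted edgeR p of 0.05). Of fast skeletal muscle, smooth muscle, basal and suprabasal keratinocyte, cartilage and tendon, and growing hair follicle markers, 0 were called. At an unadjusted p of 0.05, 1 smooth muscle and 1 cartilage and tendon gene were higher and 1 basal keratinocyte and 1 hair follicle gene lower. DESeq2 called 1 basal keratinocyte and 1 cartilage and tendon gene. Libraries of a group differed by more than sampling noise. Per the study's methods each group came from 3 mice; limits from counts cover counting error only.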

Additional observations from a re-analysis of the deposited data

How the results depend on the processing

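Alternatives beside edgeR with TMM factors on all 6 libraries gave 0 to 8 members lower at adjusted p below 0.05 and 0 higher. Members lower numbered 1 with DESeq2, 1 with total counts, 1 with at least 10 counts in every library, 3 with limma on log2(FPKM + 1) and 1 with log2(FPKM + 0.1), fits in which 17%, 25.2%, 11.9%, 32.3% and 32.1% of all genes were lower. Members past an unadjusted p of 0.05 and a log2 fold change below -1 numbered 5 with limma-voom and 7 with either FPKM scale, against 1; of all genes 15.2%, 20.5% and 32.5% met that rule there, against 14.5%. The median of the members was -0.19 with fibroblast markers as the scale, under which Eln (0.89), Mfap5 (0.28), Fbln2 (0.59) and Fbln5 (1.06) turned positive and the median over all genes was 0.99; total counts moved that median to -0.778. Per fibroblast level the members' median in each library differed between groups by 0.21 (0.09 to 0.38 with each library left out). Against Col1a1, Col1a2 and Col3a1 it differed by 0.92.

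Other pathway genes were 4 lower and 2 higher, beside 968 and 2093 of all 14875 genes. All-gene counts of the same fit are in parentheses below. The pathway counts became 10 and 4 with DESeq2 (2534 and 2719) and 11 and 1 with total counts (3752 and 1258). They were 1 and 4 on the fibroblast scale (484 and 2802), 20 and 1 with log2(FPKM + 1) (4809 and 1401), and 17 and 1 with log2(FPKM + 0.1) (4777 and 1391). Pathway genes lower were 7 with at least 10 counts in every library (1512 of 12659). Pathway genes higher were 1 with the upper quartile (1965), with no filter (1913 of 17835) and with the replicate block (1432).

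Leaving out each library in turn, edgeR called 0 to 7 members lower, DESeq2 0 to 8 and limma-voom 0 to 5 (the DESeq2 and limma-voom fits were chosen after seeing the data), with the highest counts without rebamipide library 1, where 12.8%, 27.3% and 8.93% of all genes were lower. By the unadjusted rule the ranges were 0 to 7, 1 to 7 and 0 to 7, with 19.8%, 24.6% and 15.7% of all genes without that library. Medians ranged from -1.87 to -0.67 in edgeR, -1.87 to -0.65 in DESeq2 and -1.84 to -0.90 in limma-voom. Pathway genes lower ranged from 0 to 19, 6 to 28 (9 without vehicle library 1) and 0 to 17, and higher from 0 to 3, 2 to 5 and 1 to 4. Over the same fits all genes lower ranged from 0 to 1971, 1426 to 4189 and 7 to 1384. All genes higher ranged from 0 to 2810, 2049 to 3657 and 210 to 2783. Without vehicle library 3 or rebamipide library 2 or 3, Fbln5 turned to 0.08, 0.05 and 0.07 in edgeR (-0.30 without rebamipide library 1), 0.08, 0.05 and 0.09 in DESeq2, and 0.04, 0.03 and 0.05 in limma-voom. The cause of these changes was not tested.

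Libraries with the same replicate number did not deviate together (correlations of 0.011, -0.041 and 0.022), and no library correlated best with its own number. There was thus no sign of pairing by number, but with 3 libraries per group such correlations cannot exclude it. With the replicate block edgeR called 0 members (median -1.38), 855 genes lower and 1432 higher, against 968 and 2093 without it. Counts were fewest in rebamipide library 3, with 2 for Fbn2, 36 for Mfap2 and 40 for Mfap4, and only Fbn2 was under the limit that a count of 0 allows.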
